A study of Mus musculus with 14 samples.

Results

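The 8 genes described here handle, make or regulate cholesterol. Npc1, Npc2 and Lipa serve its export from the lysosome and Osbpl1a binds sterol at late endosomes. Hmgcs1 and Sqle encode enzymes of its synthesis, and Srebf2 and Insig1 control that synthesis. They were picked by symbol from the 12421 genes of a count table, with earlier results of these data known. All 8 were listed in the table, and all 8 passed the filter on low counts in each of the 7 comparisons made. Osbpl1a, the scarcest, held 30 counts in all in one of the groups and 2805 in another.

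The table came from RNA sequencing of 14 libraries from 8 T-cell acute lymphoblastic leukaemias of the mouse VTL model, in which the oncogene is Lmo2. The leukaemias had arisen after thymocytes were given to C57BL/6-Ly5.1;FVB F1 mice that had received a sublethal dose of radiation, and were then passed into C57BL/6-Rag1-/- mice, which lack T and B cells of their own but keep myeloid cells. Donor cells carrying both CD45.1 and CD45.2 were sorted from the spleens of these secondary recipients. By their relation to Lmo2 the tumours were labelled dependent, which are VTL-19 and VTL-24, or evolving, which are VTL-25, VTL-153 and VTL-21, or independent, which are VTL-33, VTL-81 and VTL-44. Each tumour gave 1 library from mice without doxycycline (Dox), and each evolving and independent tumour gave 1 more from mice fed Dox in pellets at 600 mg/kg. The groups are therefore 2 dependent, 3 evolving and 3 independent tumours without Dox, and the same 3 evolving and 3 independent tumours with Dox. The labels do not name the promoter of the Lmo2 transgene or say which way Dox acts on it, and whether a tumour was passed through 1 mouse or several is not given in the sources used here.

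Cells take up cholesterol mainly as esters inside low-density lipoprotein, which receptors at the surface carry into endosomes. In the lysosome the acid lipase Lipa frees the cholesterol, Npc2 picks it up in the lumen, and Npc1 passes it through the membrane towards the rest of the cell. When sterol is scarce in the endoplasmic reticulum, Insig proteins let go of the complex that holds the transcription factor SREBP2, the product of Srebf2, and SREBP2 then switches on uptake and the enzymes of the mevalonate pathway. Proliferating T cells draw on both supplies to build membrane.

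The libraries held 18214415 to 24048281 counts. Lmo2 itself, in CPM (counts-per-million, scaled by library size), ranged from 303 to 708 in the untreated evolving tumours, from 0.198 to 3.24 in those given Dox, and from 120 to 142 in the dependent tumours. Among the independent tumours VTL-33 without Dox had 600 CPM of Lmo2, whereas the other 5 libraries had 1.32 to 27.2 CPM. The 11 T-lineage markers were detected in every library and summed to 6496 to 10340 CPM. The 17 myeloid markers summed to 28.4 to 240 CPM in all libraries but 3, which were VTL-44 without and with Dox (1600 and 837 CPM) and VTL-81 with Dox (2122 CPM). Measured B cell markers, 6 of 13 on the list, summed to 6506 CPM in VTL-21 with Dox and to 118 to 926 CPM in the other libraries. Erythroid markers (8 of 11 measured) summed to 0.961 to 188 CPM, and stromal and endothelial markers (5 of 10 measured) to 146 to 959 CPM. The leading T cell receptor beta segment of VTL-25 went from Trbv24 to Trbv5 under Dox, so its 2 libraries may hold different clones, while the other 5 pairs kept their segment. VTL-25 and VTL-153 without Dox had the most alike expression of any tumours without Dox, with a Pearson r of 0.978 across genes. Trbv24 led in both, with 78.7% and 77.5% of the beta segment counts. It also led without Dox in VTL-21 (84.6%) and VTL-33 (72.4%). Whether these tumours arose apart from each other was not tested.

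With Dox, Npc1 and Osbpl1a fell and Lipa rose in the evolving tumours. Because the 8 genes were chosen with earlier results known, counts among them, here and between the classes, are a description. The shares of all genes beside them are no test of the set. These were 3 of the 8 genes past an adjusted p of 0.05 by edgeR, 1 higher and 2 lower, where 2.13% of all 12360 tested genes passed, 1.1% higher and 1.03% lower. In the independent tumours no member passed with Dox, as for 0.0% of all genes, and 1 member had an unadjusted p under 0.05, against 0.704% of genes. Neither DESeq2 nor limma voom called a member there, where each called 0.0% of all genes. In the evolving tumours both also called Hmgcs1 lower, so that each called 4 of the 8, where DESeq2 called 10.6% and limma voom 3.55% of all genes. In 6 of the 8 genes all 3 evolving tumours moved the same way with Dox, against 34.9% of all genes, and in the independent tumours this held for 4 of the 8, against 17.0%. The differences between the 2 Dox responses, independent minus evolving, gave 0 calls among the 8 by edgeR, where 0.121% of all genes passed, with 5 members under an unadjusted p of 0.05 against 9.53% of genes, and 3 calls by DESeq2 (4.44% of genes) and 2 by limma voom (0.542%).

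Between the classes without Dox, Npc1 was lower in the independent than in the dependent and the evolving tumours, and Osbpl1a was lower in the independent than in the evolving tumours. For independent minus dependent tumours that is 1 member of 8, where 0.0972% of genes passed and 0.081% were lower. For independent minus evolving tumours it is 2 of 8, where 0.259% of genes passed and 0.17% were lower. DESeq2 called 2 and 3 members there (6.47% and 8.73% of genes), adding Osbpl1a in the former and Hmgcs1 in the latter, and limma voom called 0 and 1 (0.0% and 0.0567% of genes). No member passed between evolving and dependent tumours (0.0% of genes by edgeR), and 1 member had an unadjusted p under 0.05, against 3.39% of genes. None passed between independent and evolving tumours that both had Dox (0.0% of genes), and 0 members had an unadjusted p under 0.05, against 4.74% of genes. DESeq2 and limma voom called no member in either of these, where DESeq2 called 0.523% and 0.784% of genes and limma voom 0.0% and 0.00827%. The Dox comparison of the evolving tumours and the class comparisons share the 3 evolving libraries without Dox, so their values for a gene are not independent of each other.

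**Figure D1:**
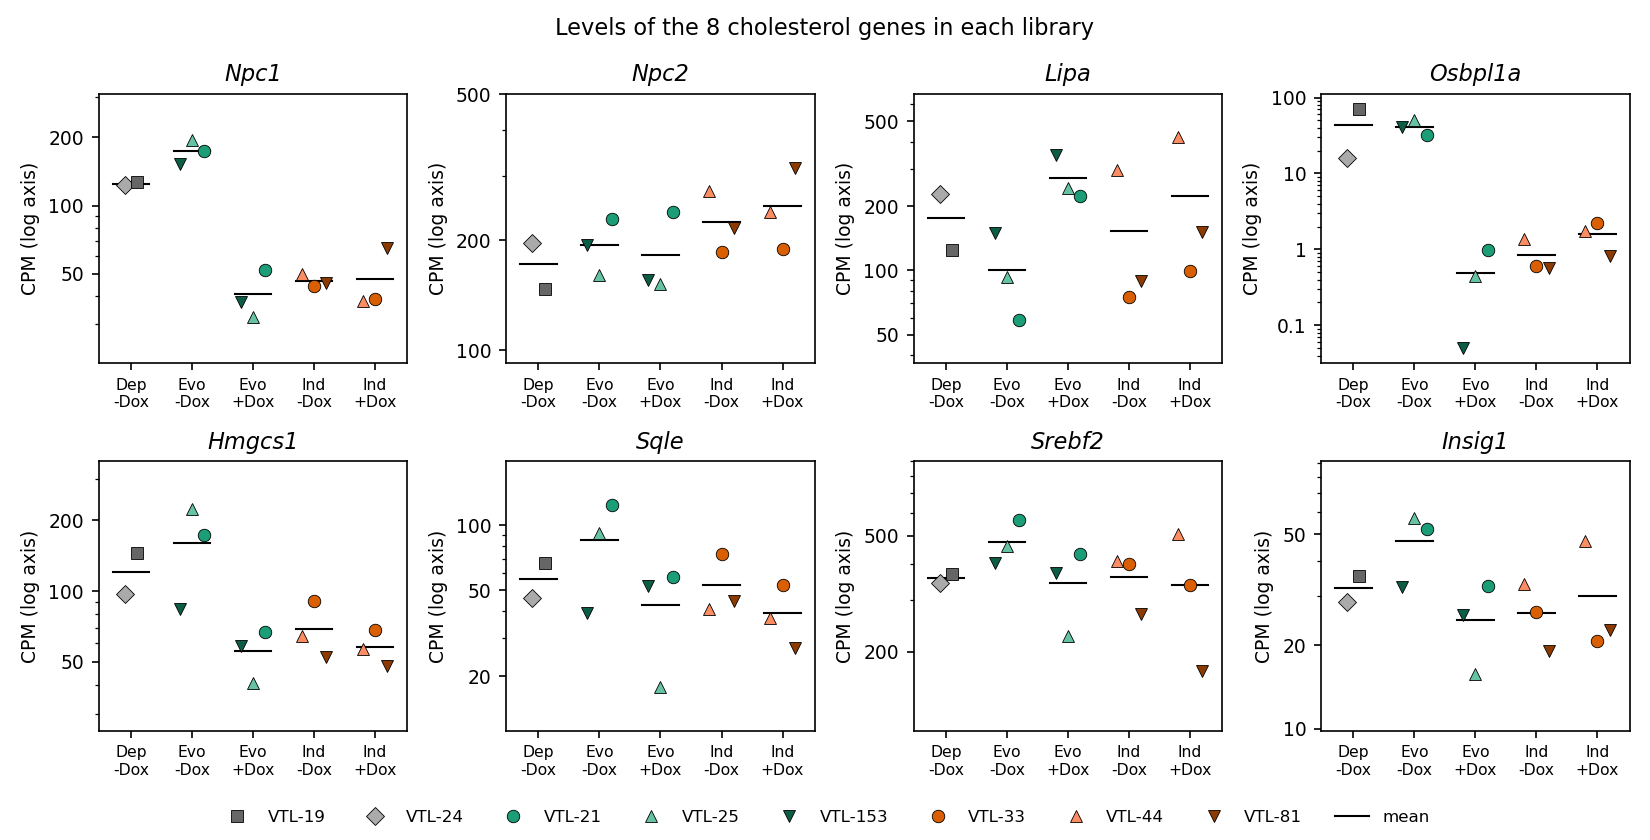
CPM of the 8 genes (log axis, separate range for each gene) in every library, with 1 symbol per tumour and a bar at the group mean. Dep, Evo and Ind are the dependent, evolving and independent tumours without (−Dox) and with (+Dox) Dox. Npc1 runs from 123 to 195 CPM and Osbpl1a from 16.2 to 70.6 CPM in the dependent and evolving tumours without Dox, above every other library.

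Npc1 (ENSMUSG00000024413, chromosome 18, 12189692 to 12236400 on the minus strand of mm10, protein coding) encodes the large membrane protein that carries cholesterol out of late endosomes and lysosomes. Among the evolving tumours it dropped from 195 CPM to 32.3 CPM in VTL-25, from 152 CPM to 37.7 CPM in VTL-153 and from 174 CPM to 52.3 CPM in VTL-21 once Dox was given. The dependent tumours were close to each other, at 127 CPM in VTL-19 and 123 CPM in VTL-24. The independent tumours VTL-33, VTL-81 and VTL-44 had 44.1, 45.4 and 49.9 CPM without Dox and 38.6, 65.2 and 38.1 CPM under Dox. The 5 libraries of dependent and evolving tumours without Dox thus all lay above the other 9, a pattern shared by 2.46% of all genes, and the gap ran from 65.2 to 123 CPM. VTL-33 without Dox lay with the lower libraries although its Lmo2 was among the highest.

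In the evolving tumours the mean of Npc1 went from 174 ± 21.6 CPM to 40.8 ± 10.3 CPM (SD, n = 3 tumours). Npc1 fell in 3 of 3 tumours, with a log2 change of −2.11 (SE 0.24, 4.32-fold, adjusted p = 0.0142 by edgeR). In a bulk sample, fewer cells of one type and less RNA per cell cannot be told apart. The adjusted p was 0.0501 both without VTL-153 (log2 change −2.175) and without VTL-25 (−1.87). It was 0.0593 with the same log2 change of −2.11 when VTL-81 and VTL-44, independent tumours that enter only the estimate of the spread, were left out. Without VTL-21, whose library with Dox held the B cell markers, it was 0.0182 (log2 change −2.325). In the independent tumours the log2 change was −0.02 (SE 0.23, adjusted p = 1), and the difference between the classes' responses was 2.09 (SE 0.33, adjusted p = 0.0877). That difference passed by DESeq2 (adjusted p = 1.61e-06) and limma voom (adjusted p = 0.0482).

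Without Dox, the independent tumours averaged 46.5 ± 3.04 CPM of Npc1 (SD, n = 3) against 125 ± 2.62 CPM in the dependent tumours (n = 2). The log2 difference was −1.43 (SE 0.14, adjusted p = 0.0251 by edgeR) from the dependent and −1.90 (SE 0.13, adjusted p = 0.00434) from the evolving tumours. The call against the evolving tumours held with any 1 tumour left out, where the adjusted p ran up to 0.0351, and was lost without VTL-44 and VTL-81 together (adjusted p = 0.0776). The call against the dependent tumours was lost with any 1 tumour but VTL-44 left out (adjusted p up to 0.102, with the log2 difference between −1.48 and −1.39) and by limma voom (−1.43, adjusted p = 0.0532), and it passed by DESeq2 (adjusted p = 4.99e-16). Npc1 shares 511 bases of exon with the gene on the opposite strand listed as 3110002H16Rik, and the strand setting of the counting is not given in the sources used here. That neighbour stood at 47.9 to 70.6 CPM over the group means and did not pass in either comparison.

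Osbpl1a (ENSMUSG00000044252, chromosome 18, 12755314 to 12941841 on the minus strand, protein coding) encodes an oxysterol-binding protein relative whose long form sits on late endosomes and senses their cholesterol. The count table gives its biotype as retained intron, where GENCODE has protein coding. Osbpl1a shares 855 bases of exon with a gene on the opposite strand that has no counts of its own here. As for Npc1, the unknown strand setting matters for this overlap. Osbpl1a was close to 0 in the evolving tumours with Dox. The 51.2 CPM of VTL-25, 40.4 CPM of VTL-153 and 32.4 CPM of VTL-21 became 0.446, 0.0506 and 0.982 CPM under Dox. These latter values rest on 9, 1 and 20 counts, so their counting error is large. VTL-19 and VTL-24, the dependent tumours, had 70.6 and 16.2 CPM, and all 6 independent libraries lay between 0.561 and 2.25 CPM. As with Npc1, the 5 libraries of dependent and evolving tumours without Dox lay above the other 9, here with a gap from 2.25 to 16.2 CPM.

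Osbpl1a thus fell in 3 of 3 evolving tumours, with a log2 change of −6.69 (SE 0.85, adjusted p = 0.0181 by edgeR), and the adjusted p was 0.0922 without VTL-25 (log2 change −6.63), 0.0983 without VTL-81 and VTL-44 together (−6.67) and 0.0147 without VTL-21 (−7.75). In the independent tumours VTL-33, VTL-81 and VTL-44 it stood at 0.608, 0.561 and 1.39 CPM without Dox and at 2.25, 0.829 and 1.75 CPM under Dox. Each of these 3 was higher with Dox, at levels of 55 counts without and 102 counts with Dox over the group, and the log2 change of 0.92 (SE 0.70) gave an adjusted p of 1. The difference between the responses was 7.61 (SE 1.08, adjusted p = 0.0842) and passed by DESeq2 (adjusted p = 5.81e-12) and limma voom (adjusted p = 0.0482). Without Dox the log2 difference was −5.60 between independent and evolving tumours (SE 0.69, adjusted p = 0.0488) and −5.67 between independent and dependent tumours (SE 0.71, adjusted p = 0.0548). The former call was lost by limma voom (adjusted p = 0.2) and without VTL-153, VTL-25, VTL-21, VTL-33 or VTL-81 (adjusted p up to 0.204). The evolving and dependent tumours without Dox differed by −0.07 (SE 0.61, adjusted p = 1).

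Npc1 and Osbpl1a lie on the same strand of chromosome 18 with 519 kb between them, so the other genes of the table around them were compared as well, a look added after the values of the pair had been seen. Within 1 Mb of the stretch from Npc1 to Osbpl1a the table held 6 more genes, Rbbp8, Cables1, Tmem241, Riok3, 3110002H16Rik and Impact. None of the 6 passed with Dox in the evolving tumours, where 2.13% of all genes passed. The adjusted p of the 6 ran from 0.225 to 0.938. Impact, the nearest of them beyond Osbpl1a, stood at 40.2 ± 0.907 CPM without Dox and at 34.1 ± 9.04 CPM with Dox (SD, n = 3). Cables1 had the next largest log2 change, −1.71, at a level of 1.19 ± 0.252 CPM without Dox.

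**Figure D2:**
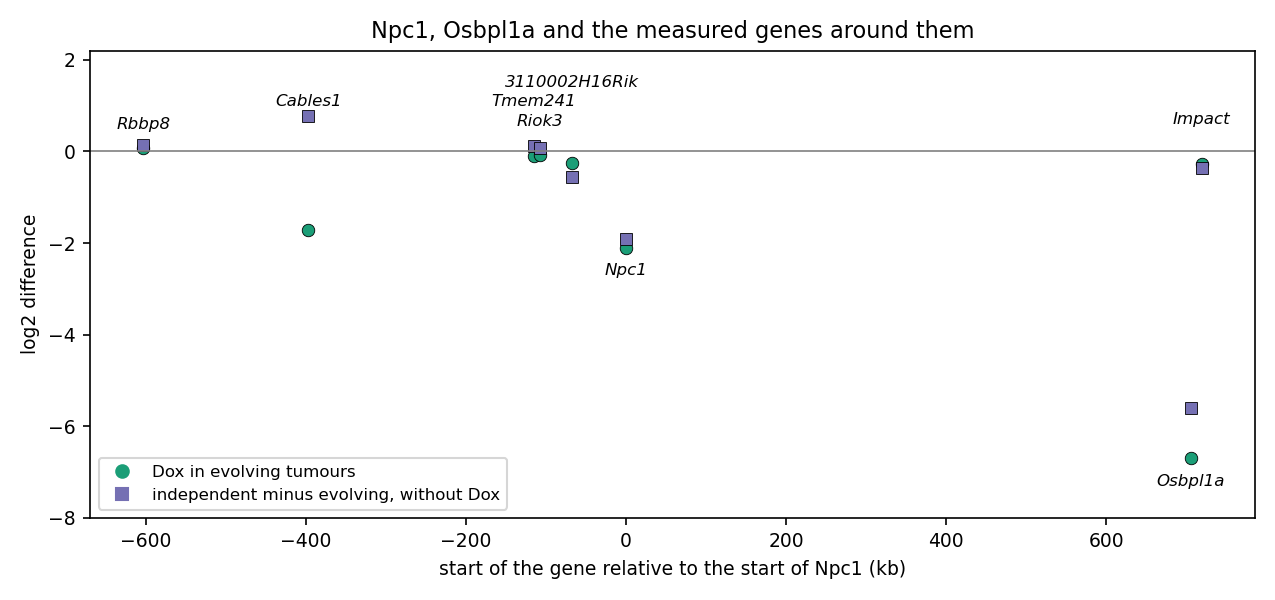
Log2 difference (edgeR estimate) of Npc1, Osbpl1a and the 6 other measured genes around them, against the distance of each gene's transcription start from that of Npc1 in kb. Circles are Dox in evolving tumours and squares are independent minus evolving tumours without Dox. Npc1 at −2.11 and −1.90 and Osbpl1a at −6.69 and −5.60 lie furthest below 0, and Cables1, at low counts, has −1.71 and 0.79.

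Lipa (ENSMUSG00000024781, chromosome 19, 34492318 to 34527474 on the minus strand, protein coding) encodes lysosomal acid lipase, which splits the cholesteryl esters and triglycerides that reach the lysosome. It moved opposite to Npc1. The evolving tumours VTL-25, VTL-153 and VTL-21 had 93.4, 149.8 and 58.7 CPM without Dox and 243, 347 and 222 CPM under Dox, so the groups did not overlap. Lipa rose in 3 of 3 tumours, with a log2 change of 1.50 (SE 0.17, adjusted p = 0.0142 by edgeR). The adjusted p was 0.06 without VTL-25 (log2 change 1.57), 0.0875 without VTL-81 and VTL-44 together (1.504) and 0.0235 without VTL-21 (1.27), and with no replicate block, that is without pairing the libraries of a tumour, the change of 1.43 had an adjusted p of 0.403.

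The independent tumours VTL-33, VTL-81 and VTL-44 had 75.3, 89.4 and 295 CPM of Lipa without Dox and 99.5, 151 and 422 CPM under Dox. All 3 were higher with Dox, with a log2 change of 0.56 (SE 0.17) that gave an adjusted p of 1 and an unadjusted p of 0.013. The difference between the classes' responses, −0.95 (SE 0.24) gave an adjusted p of 0.229 by edgeR and of 0.0146 by DESeq2. Lipa is also abundant in macrophages. In these libraries, which were sorted for donor cells by CD45.1 and CD45.2, the summed myeloid markers went from 177 to 36.5 CPM under Dox in VTL-153, and in VTL-25 from 240 to 33.4 CPM, and from 28.4 to 230.1 CPM in VTL-21. Of the 17 myeloid genes Elane was at 0 in VTL-153 with Dox, and Cd14 was at 0 in VTL-25 with Dox and in VTL-21 without it. VTL-33, VTL-81 and VTL-44 had myeloid sums of 98.5, 219.5 and 1600 CPM without Dox and 227, 2122 and 837 CPM under Dox. The part of myeloid cells in the level of Lipa was not tested.

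The stretch before the start of Lipa is shown because it was the 1 member that rose. Capitals mark a CCAAT box read on the opposite strand, found in 33.8% of the 32851 RefSeq promoter windows of 250 bases. Neither TCACNCCAC, the core of the sterol regulatory element that SREBP2 binds, nor CACGTG, the E-box core of the element shared by many lysosomal genes, was in this window. Both strands were searched, and these are matches of letters only. The sequence is that of RefSeq on GRCm38.p6, chr19:34527475-34527724, minus strand.
Lipa: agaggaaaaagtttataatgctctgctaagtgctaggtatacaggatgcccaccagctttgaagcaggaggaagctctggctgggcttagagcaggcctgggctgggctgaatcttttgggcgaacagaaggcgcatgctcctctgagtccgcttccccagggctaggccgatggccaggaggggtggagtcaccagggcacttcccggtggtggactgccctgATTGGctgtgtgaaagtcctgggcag

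Npc2 (ENSMUSG00000021242, chromosome 12, 84754562 to 84773152 on the minus strand, protein coding) encodes the soluble lysosomal protein that hands cholesterol to Npc1. Its level differed by 2.13 times at most over the 14 libraries, from 147.5 to 314 CPM, against 6.04 times for Npc1 and 7.19 times for Lipa. In the evolving tumours it averaged 194 ± 33.3 CPM untreated and 182 ± 49.0 CPM under Dox (SD, n = 3), and the independent tumours had 224 ± 44.3 and 248 ± 62.9 CPM. The dependent tumours had 172 ± 34.4 CPM (n = 2). All 5 groups overlapped, and no comparison passed (log2 change with Dox in the evolving tumours −0.11, SE 0.17, adjusted p = 0.814). Npc1 thus went from 0.762 to 1.21 CPM per CPM of Npc2 in the evolving tumours without Dox to 0.213 to 0.242 with Dox, while the ratio in the independent libraries was 0.159 to 0.238.

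A list of 10 genes of lysosomal export and endosomal sterol transport, which holds these 4 members, had a median log2 change of −0.04 with Dox in the evolving tumours, against −0.002 for all genes. Its 3 calls by edgeR were the members Npc1, Osbpl1a and Lipa, where 2.13% of all genes passed. Among the other 6, Gramd1b, which encodes a carrier of cholesterol from the plasma membrane to the endoplasmic reticulum, had a log2 change of 2.69 (SE 0.57, adjusted p = 0.0743 by edgeR). DESeq2 and limma voom both called Gramd1b higher, so that each called 4 of the 10, against 10.6% and 3.55% of all genes. DESeq2 also called Gramd1b in the difference of the responses (log2 −2.525 by edgeR) and higher in independent than in evolving tumours without Dox (1.8). It called 4.44% and 8.73% of all genes there. Scarb2, Stard3 and Tmem97 had log2 changes of −0.16, 0.03 and 0.15. The list as a whole did not move one way, with 5 genes above 0 and 5 below.

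**Figure D3:**
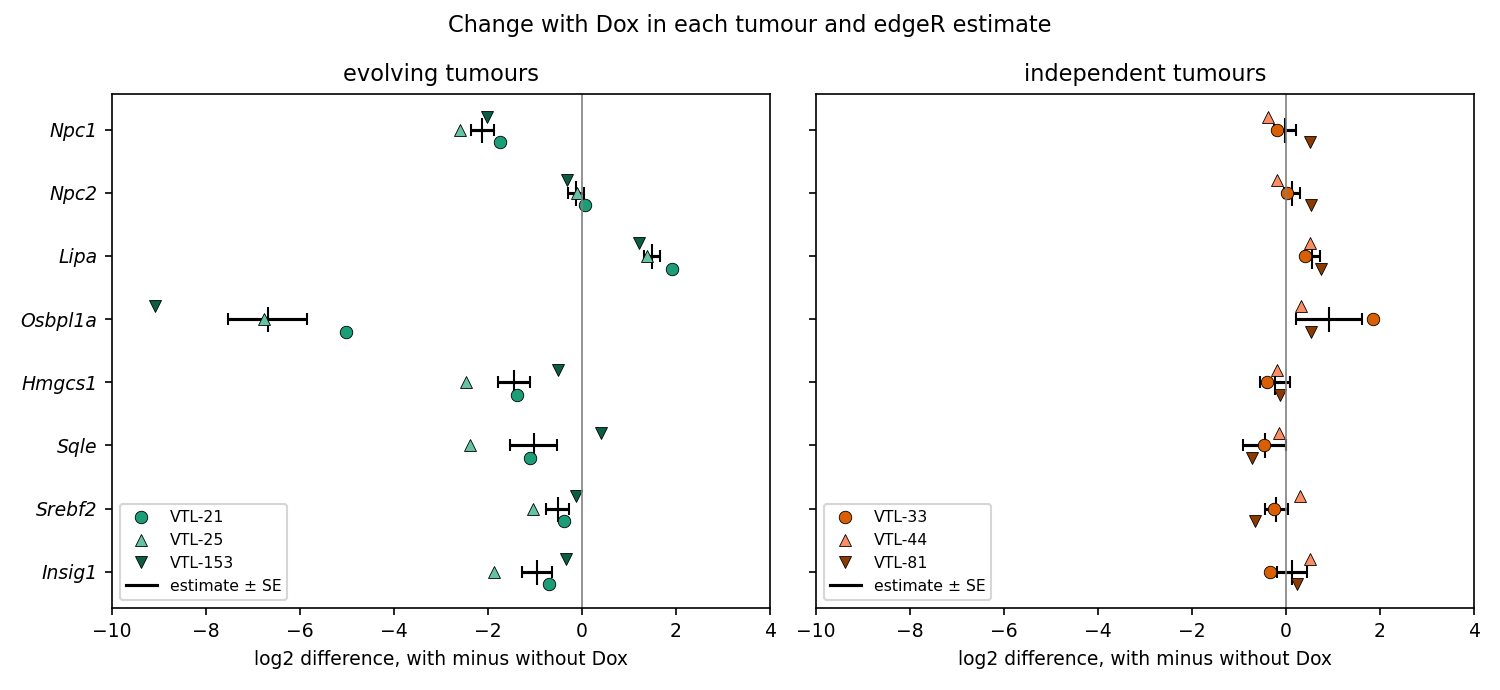
Log2 difference with minus without Dox of the 8 genes in each tumour (symbols), with the edgeR estimate and its SE (black bar), for evolving (left) and independent tumours (right). In the evolving tumours Npc1 lies at −2.59 to −1.73, Lipa at 1.21 to 1.92, and Osbpl1a furthest to the left in every tumour; Hmgcs1, Sqle and Insig1 spread widely, with VTL-25 lowest.

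Uptake was read from 5 measured genes of lipoprotein uptake. With Dox in the evolving tumours their median log2 change was −0.05, against −0.002 for all genes. None of the 5 was called by edgeR, DESeq2 or limma voom, which called 2.13%, 10.6% and 3.55% of all genes. Lrpap1, which encodes a chaperone of lipoprotein receptors, had a log2 change of 0.45 (SE 0.16, adjusted p = 0.227 by edgeR). It was the 1 with an unadjusted p under 0.05, against 16.7% of all genes. Lrp8, Scarb1 and Mylip were at 0.19, −0.05 and −0.11, and Lrp1, a large receptor also made by macrophages, was at −0.80 with an SE of 1.54. Without Dox, Lrp1 was 3.285 higher on the log2 scale in independent than in evolving tumours (SE 0.83, adjusted p = 0.135 by edgeR) and 2.90 higher than in dependent tumours (SE 0.97, adjusted p = 0.275). DESeq2 called both, where it called 8.73% and 6.47% of all genes. No other uptake gene was called between the classes by any of the 3 tools. In the independent tumours edgeR called none of the 5 with Dox either (0.0% of all genes), and the median was 0.10. Set beside the export genes, these uptake genes held no call with Dox, where the 3 export genes Npc1, Npc2 and Lipa held 1 lower and 1 higher. No call among 5 genes is near the share over all genes, and the export genes were chosen with earlier results known. These counts thus do not set uptake apart from export.

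Hmgcs1 (ENSMUSG00000093930, chromosome 13, 119690379 to 119708260 on the plus strand, protein coding) encodes the cytosolic synthase that makes HMG-CoA, an early step of the mevalonate pathway. Without Dox its level was 224 CPM in VTL-25, 83.7 CPM in VTL-153 and 173 CPM in VTL-21, and under Dox these became 40.8, 58.7 and 66.9 CPM. Every evolving library without Dox was above every one with Dox, but VTL-153 differed by 1.43 times and VTL-25 by 5.48 times. The log2 change of −1.44 (SE 0.34) gave an adjusted p of 0.0939 by edgeR, and it passed by DESeq2 (adjusted p = 0.000355) and limma voom (adjusted p = 0.0492). Without VTL-25 it was −0.94. Hmgcs1 shares 557 bases of exon with a gene on the opposite strand that has no counts of its own here, and the strand setting of the counting is not given.

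Hmgcs1 was at 146 CPM in VTL-19 and 96.8 CPM in VTL-24, the dependent tumours. The values of VTL-33, VTL-81 and VTL-44 were 90.4, 52.4 and 64.6 CPM without Dox and 68.6, 48.3 and 56.9 CPM under Dox. The log2 difference between independent and evolving tumours without Dox was −1.21 (SE 0.38, adjusted p = 0.194 by edgeR, 0.028 by DESeq2) and with Dox it was 0.06 (SE 0.25, adjusted p = 0.987).

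Sqle (ENSMUSG00000022351, chromosome 15, 59315077 to 59331192 on the plus strand, protein coding) encodes squalene epoxidase, the first oxygen-requiring step of sterol synthesis. The evolving tumours did not move together, since the 92.2, 39.2 and 124 CPM of VTL-25, VTL-153 and VTL-21 without Dox stood against 17.8, 52.4 and 57.7 CPM under Dox. The log2 change of −1.02 (SE 0.49) gave an adjusted p of 0.374 and was −0.34 without VTL-25 and −1.745 without VTL-153. The independent tumours had 53.0 ± 17.8 CPM without and 39.0 ± 13.1 CPM with Dox (SD, n = 3), lower with Dox in 3 of 3 tumours, and the dependent tumours had 56.4 ± 14.7 CPM (n = 2). No comparison of Sqle passed.

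Of the 20 measured enzymes of the mevalonate and sterol pathway reported here, Hmgcs1 and Sqle among them, all 20 had a log2 change below 0 with Dox in the evolving tumours, with a median of −0.69 against −0.002 for all genes. The calls by edgeR were 1 lower and 0 higher, where 2.13% of all genes passed. An unadjusted p under 0.05 was found for 11, all lower, where 16.7% of all genes had one in either direction. Dhcr7, which encodes the reductase of a last step, fell by 0.76 (SE 0.12, adjusted p = 0.0307), from 86.5 ± 11.9 to 51.1 ± 5.96 CPM (SD, n = 3). DESeq2 called 7 of the 20 and limma voom 3, all lower, where they called 10.6% and 3.55% of all genes. In the single tumours 18 of the 20 were lower with Dox in VTL-153, 19 in VTL-25 and 19 in VTL-21, with medians of −0.48, −0.73 and −0.62. Idi1, Fdps, Hsd17b7 and Dhcr7 were 4 of the 20 that, like Npc1, had the 5 libraries of dependent and evolving tumours without Dox above the other 9, a pattern held by 2.46% of all genes.

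In the independent tumours 17 of the 20 enzymes had a log2 change below 0 with Dox, with a median of −0.16 against 0.006 for all genes, and edgeR, DESeq2 and limma voom called none. The difference of the responses was above 0 for all 20, with a median of 0.57 and 5 at an unadjusted p under 0.05 (9.53% of all genes). None was called by edgeR, DESeq2 or limma voom, which called 0.121%, 4.44% and 0.542% of all genes. Without Dox, 18 of the 20 were lower in independent than in evolving tumours (median −0.66) and 19 were lower than in dependent tumours (median −0.38). None passed by edgeR, with 10 and 3 at an unadjusted p under 0.05 (16.4% and 13.2% of all genes), limma voom called none, and DESeq2 called 6 and 1 (8.73% and 6.47% of all genes). With Dox, independent and evolving tumours differed by a median of −0.14 over the 20. Markers of other cells differed between these classes too. All 17 myeloid markers had a log2 difference above 0 for independent minus evolving tumours without Dox, with a median of 2.25. Of these, 7 had an unadjusted p under 0.05 (16.4% of all genes). The 17 markers summed to 98.5 to 1600 CPM against 28.4 to 240.4 CPM. The stromal and endothelial markers summed to 265 to 642 CPM in the independent, 158 to 183 CPM in the evolving and 146 to 185 CPM in the dependent tumours without Dox. Their part in the class differences was not tested.

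**Figure D4:**
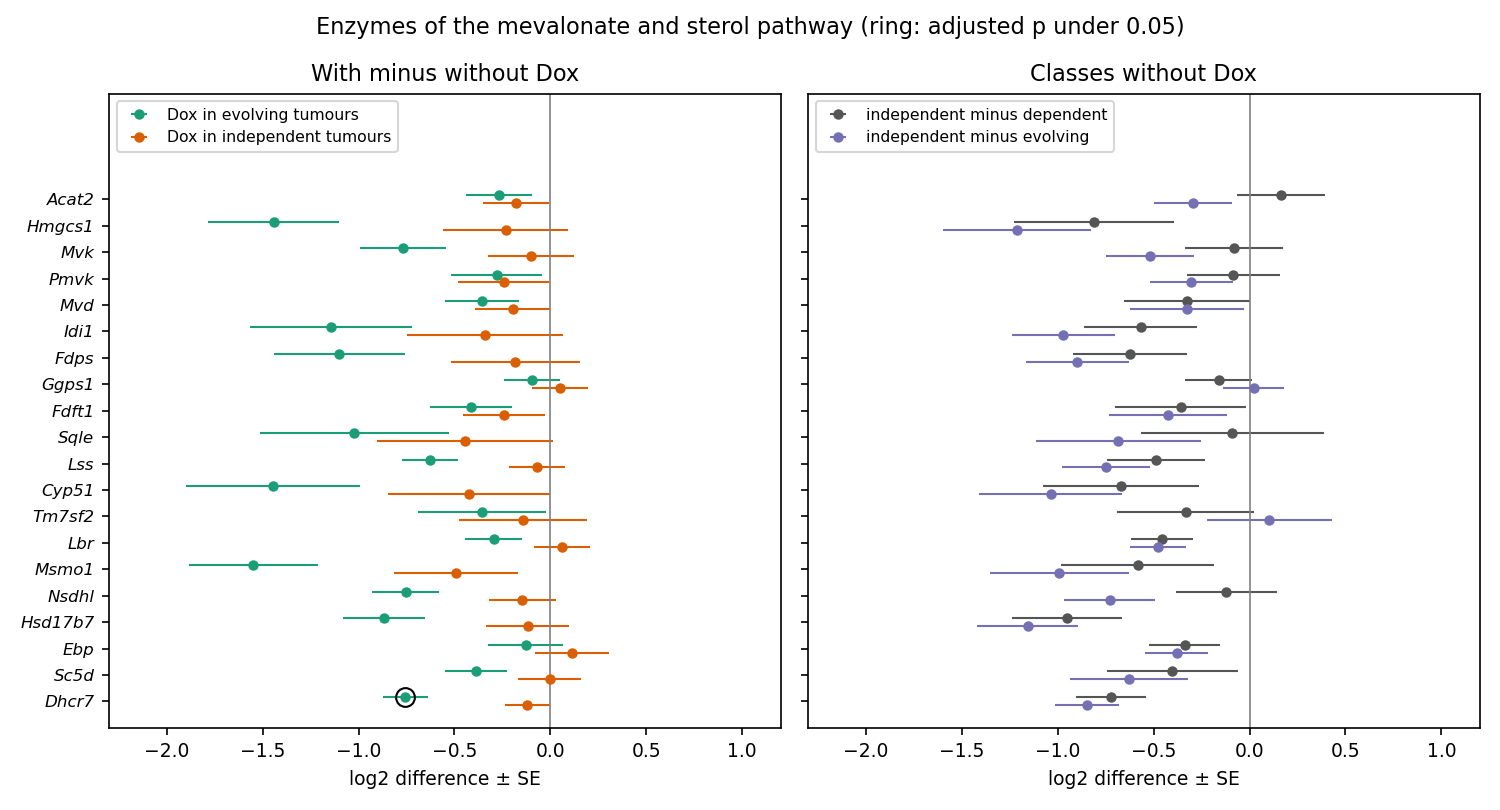
Log2 difference with its SE (edgeR) of the 20 measured enzymes of the mevalonate and sterol pathway, in pathway order, for Dox (left) and for the classes without Dox (right), with a ring where the adjusted p was under 0.05. With Dox all 20 estimates of the evolving tumours lie below 0, Dhcr7 carries a ring, and those of the independent tumours lie between −0.49 and 0.11.

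Srebf2 (ENSMUSG00000022463, chromosome 15, 82147181 to 82205379 on the plus strand, protein coding) encodes SREBP2, which is made as an inactive membrane protein, so its transcript does not show how much of the factor was active. Its 463, 404 and 564 CPM in VTL-25, VTL-153 and VTL-21 without Dox became 226, 372 and 434 CPM under Dox. The log2 change of −0.51 (SE 0.24) gave an adjusted p of 0.355, with 3 of 3 tumours lower and overlapping groups. The independent tumours ranged from 171 to 505 CPM over both conditions, and the dependent tumours had 346 and 370 CPM. No comparison of Srebf2 passed.

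Insig1 (ENSMUSG00000045294, chromosome 5, 28071363 to 28078662 on the plus strand, protein coding) encodes the protein that holds the SREBP2 complex in the endoplasmic reticulum, and is itself a target of SREBP2. VTL-25, VTL-153 and VTL-21 had 57.2, 32.4 and 52.4 CPM of it without Dox and 15.8, 25.5 and 32.6 CPM under Dox. The 3 tumours were all lower with Dox, VTL-25 most, and the log2 change of −0.96 (SE 0.32) gave an adjusted p of 0.194. The independent tumours had 26.2 ± 7.01 CPM without and 30.1 ± 14.7 CPM with Dox (SD, n = 3), and the dependent tumours 31.9 ± 4.88 CPM (n = 2). Without Dox, independent minus evolving was −0.86 (SE 0.28, adjusted p = 0.212), and no comparison of Insig1 passed.

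Over 11 genes of SREBP control edgeR called none with Dox in the evolving tumours, where 2.13% of all genes passed. At an unadjusted p under 0.05 there were 2 higher and 2 lower, against 16.7% of all genes. The median log2 change was 0.15. DESeq2 called Insig2 lower and Rnf145 higher (10.6% of all genes), and limma voom called Rnf145 (3.55% of all genes). The log2 change of Insig2, the second Insig gene, was −0.71 (SE 0.16, adjusted p = 0.0806 by edgeR) and that of Scap, the escort of SREBP2, was 0.15.

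RefSeq promoter windows of 5 of the 8 members were read. Those of Hmgcs1, Srebf2 and Insig1 are shown because their levels were all lower with Dox in each evolving tumour. Capitals mark the matches to TCACNCCAC (in 1.05% of the 32851 windows), its shorter form TCACCCCA (1.34%, added after the windows had been seen), CACGTG (6.02%) and CCAAT (33.8%), each on either strand, where ATTGG is CCAAT read on the other strand. Hmgcs1 has TCACCCCAC, a match to both sterol element forms, ending 129 bases before the RefSeq start, and 3 CCAAT boxes. Srebf2 has TCACCCCA ending 155 bases before its start, and Insig1 has CACGTG ending 96 bases before its start, with 1 CCAAT box each. The stretches lie at chr13:119690101-119690350, chr15:82147019-82147180 and chr5:28071162-28071362, all on the plus strand of GRCm38.p6, those of Srebf2 and Insig1 cut where the GENCODE gene begins. A match describes letters and not a bound site.
Hmgcs1: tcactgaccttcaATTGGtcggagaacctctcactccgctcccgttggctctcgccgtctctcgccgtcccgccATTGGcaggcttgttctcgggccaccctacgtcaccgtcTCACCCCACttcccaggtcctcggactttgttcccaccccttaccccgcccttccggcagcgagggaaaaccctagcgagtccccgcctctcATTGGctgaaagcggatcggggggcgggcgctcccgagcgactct
Srebf2: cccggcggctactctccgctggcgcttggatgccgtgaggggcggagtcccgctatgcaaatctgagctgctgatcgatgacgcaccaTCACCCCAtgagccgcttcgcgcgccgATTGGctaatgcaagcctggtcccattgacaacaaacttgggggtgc
Insig1: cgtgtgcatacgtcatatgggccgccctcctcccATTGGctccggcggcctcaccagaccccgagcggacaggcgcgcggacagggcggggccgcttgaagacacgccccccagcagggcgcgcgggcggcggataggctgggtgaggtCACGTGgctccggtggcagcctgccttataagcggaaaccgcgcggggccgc

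Export and synthesis were set side by side in each library as the mean log2 CPM of Npc1, Npc2 and Lipa minus that of Hmgcs1 and Sqle, a description with no test. In the evolving tumours this difference went from 1.52 to 1.19 with Dox in VTL-153, from −0.004 to 1.97 in VTL-25 and from −0.15 to 1.18 in VTL-21. The group mean was 0.46 ± 0.92 without and 1.45 ± 0.46 with Dox (SD, n = 3). The independent tumours had 0.89 ± 0.79 without and 1.45 ± 0.77 with Dox, higher with Dox in 3 of 3, and the dependent tumours 0.92 ± 0.69 (n = 2). All 5 groups overlapped, and VTL-153 moved against the other 5 pairs. The mean hides that the export genes parted, since Lipa was 0.338 to 0.986 times Npc1 in the evolving tumours without Dox and 4.25 to 9.20 times with Dox. In the independent libraries Lipa was 1.71 to 11.1 times Npc1, and in the dependent tumours 0.98 and 1.86 times.

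Levels of different genes were compared as CPM per kb of the union of their annotated exons. That union was 5.438 kb for Npc2, 7.184 kb for Srebf2 and 11.317 kb for Npc1. It can be longer than the transcripts made in these cells, which were not measured, so the order of genes depends on the length used. In the evolving tumours without Dox the order of mean levels was Srebf2 (66.4 ± 11.3 CPM per kb, SD, n = 3), Npc2 (35.7 ± 6.13), Hmgcs1 (34.8 ± 15.4), Sqle (15.4 ± 7.74), Npc1 (15.3 ± 1.91), Insig1 (15.3 ± 4.25), Lipa (14.8 ± 6.79) and Osbpl1a (5.30 ± 1.22). Npc2 and Hmgcs1 lay within each other's spread, as did the 4 from Sqle to Lipa. With Dox in the same tumours Srebf2 (47.9 ± 14.9) and Lipa (40.0 ± 9.87) led, Npc2 followed (33.4 ± 9.0), and Npc1 (3.60 ± 0.912) and Osbpl1a (0.0633 ± 0.0601) came last. With Dox, Lipa lay within the spread of Srebf2 and of Npc2. Srebf2 was above Npc2 in each tumour, at 51.8 against 28.6 CPM per kb in VTL-153, 31.4 against 27.8 in VTL-25 and 60.4 against 43.8 in VTL-21.

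Of the wider lists, 10 measured genes of efflux, esterification and oxysterols had no call with Dox in the evolving tumours by edgeR or limma voom (2.13% and 3.55% of all genes). At an unadjusted p under 0.05 there were 2 higher and 2 lower (16.7% of all genes). DESeq2 called Nceh1 and Stard4 lower (10.6% of all genes). Of 26 other lysosomal genes Galc fell, and it was the 1 call of edgeR there, where 2.13% of all genes passed. It was also the 1 call of limma voom (3.55% of all genes). DESeq2 called 3 of the 26 higher and 3 lower, Galc among the latter (10.6% of all genes). At an unadjusted p under 0.05 there were 6 higher and 3 lower, against 16.7% of all genes. Galc, the lysosomal galactosylceramidase, went from 22.8 ± 6.57 to 6.25 ± 2.29 CPM (SD, n = 3), a log2 change of −1.89 (SE 0.29, adjusted p = 0.0278). The median of the 26 was −0.03, with 13 above and 13 below 0, so the lysosomal genes did not move as 1 group with Npc1 or with Lipa.

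The patterns most like each member over all 14 libraries were sought among 8620 genes with a mean log2 CPM of at least 3, by Pearson's r of log2 CPM. Since the libraries share tumours, these are descriptions only. Npc1 was closest to Tbc1d9b (0.955), Lyl1 (0.949) and Arl15 (0.948), and Osbpl1a to Adck1 (0.962), Smox (0.956) and Trim36 (0.942), and the r of Npc1 with Osbpl1a was 0.902. Lipa was closest to Fchsd1 (0.93), Foxo1 (0.914) and Cmtm6 (0.904). Hmgcs1 was closest to Eef2k (0.974) and to the sterol enzymes Cyp51 (0.972) and Msmo1 (0.935), and Sqle to Cyp51 (0.884), Aldh16a1 (0.854) and Isoc1 (0.848). Srebf2 had Xpo6 (0.876), Zfp706 (0.868) and Lgals1 (0.865), Insig1 had Cenpn (0.929), Fam65a (0.905) and Rreb1 (0.886), and Npc2 had Mylip (0.846), Itm2b (0.84) and Relt (0.816).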

How the data were processed

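Alignment was to mm10 by STAR 2.5.2b and counting by featureCounts, per the submitters' processing notes. The annotation, strand setting and filter are not given in the sources used here. The deposited values used were raw counts per gene, not normalised by the authors: whole numbers, with library totals from 18214415 to 24048281. A further 42 per-sample columns of the table and the authors' comparison were not used. Positions and exon lengths are those of GENCODE M21, which held 12379 of the 12421 identifiers.

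The members, lists and tests were chosen with earlier results of these data known. The test was that of edgeR 4.0.16 under R 4.3.3 (TMM factors, default filter with a minimum count of 10, robust quasi-likelihood fits, Benjamini-Hochberg adjustment over all tested genes, threshold 0.05). Adjusted p are edgeR's where no tool is named. The SE was taken as the absolute log2 change over the root of F, and is inexact at few counts. Dox was tested with minus without in the 12 libraries of 6 tumours, with tumour as a replicate block and a Dox term per class. Classes were tested in the 8 libraries without or the 6 with Dox. CPM were scaled by TMM, with a prior count of 0.5 for log2 CPM. Alternatives were RLE factors, DESeq2 1.42.0, limma 3.58.1 voom, no filter, no replicate block, each class alone, and tumours left out. The tests were also run on simulated counts drawn with no effect of tumour, so that run cannot bear on the pairing.

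Pairing comes from the tumour number in the titles, which names the same leukaemia without and with Dox. Deviations from the group mean correlated across 11562 genes within pairs at 0.00399 in VTL-25, 0.165 in VTL-153, 0.14 in VTL-21, 0.676 in VTL-33, 0.504 in VTL-81 and 0.639 in VTL-44. Replicates carry separate tumour numbers, but nothing more says how the mice were kept apart, so the p-values measure the spread between these samples.

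Named genes were all 8 members, up to 4 other genes past the threshold per list and comparison, and the 3 genes most like each member, with predicted genes and receptor segments left out. Genes named beyond this rule (Gramd1b, Scarb2, Stard3, Tmem97, Lrp8, Scarb1, Mylip, Lrpap1, Lrp1, Idi1, Fdps, Hsd17b7, Insig2, Scap, Rnf145, Nceh1, Stard4 and the neighbours on chromosome 18) were chosen after their values were seen. A few genes of the uptake and synthesis lists are not reported here, and the list counts are without them. DESeq2 gave no adjusted p for 121 genes in the class comparisons without Dox and 101 in that with Dox. Promoter windows were the 250 bases before the RefSeq start.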

Additional observations from a re-analysis of the deposited data

Results flagged for a closer look

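Osbpl1a was lower with Dox in all 3 evolving tumours and higher with Dox in all 3 independent tumours. The difference of the log2 responses, independent minus evolving, was 7.61 (SE 1.08, adjusted p = 0.0842 by edgeR). The independent tumours held 55 counts of Osbpl1a without and 102 counts with Dox, against 2805 and 30 in the evolving tumours, so the opposite directions were measured at very different levels.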

How the results depend on the processing

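Under the alternatives the members kept their direction and their side of the threshold in most cases, but most of these results had not passed to begin with. The calls themselves were less steady. Npc1, Lipa and Osbpl1a with Dox in the evolving tumours passed in 9, 9 and 10 of 13 alternatives. Npc1 passed in 4 of 13 for independent minus dependent tumours. For independent minus evolving tumours without Dox, Npc1 and Osbpl1a passed in 12 and 6 of 13. Of the results for single members, 287 values other than those with 1 tumour left out did so, 9 passed only in the alternative, 12 no longer passed and 12 changed sign. Leaving out 1 tumour each gave 332, 3, 16 and 33. The number of genes past the threshold moved with the tool and with the libraries used. For Dox in the evolving tumours it was 263, and 1314 by DESeq2, 439 by limma voom, 73 with no replicate block, 17 without VTL-81 and VTL-44, 21 in the evolving libraries alone and 49 to 347 with 1 tumour left out. Members past the threshold there numbered 3, and 0 without VTL-81 and VTL-44 or in the evolving libraries alone, where the fewer libraries gave Npc1, Lipa and Osbpl1a adjusted p of 0.0611, 0.0905 and 0.0992, and 0 to 3 with 1 tumour left out. For the difference of the responses the 15 genes became 549 by DESeq2, 67 by limma voom, 1 with no replicate block, 0 without VTL-81 and VTL-44 and 0 to 58 with 1 tumour left out, and the members 3 by DESeq2, 2 by limma voom and 0 to 1. For independent minus dependent tumours the 12 genes became 791 by DESeq2, 0 by limma voom and 2 to 73 with 1 tumour left out, and the 1 member became 2 by DESeq2, 0 by limma voom, 0 without VTL-81 and VTL-44 and 0 to 2. For evolving minus dependent tumours the 0 genes became 64 by DESeq2 and 0 to 1. For independent minus evolving tumours without Dox the 32 genes became 1068 by DESeq2, 7 by limma voom, 9 without VTL-81 and VTL-44 and 3 to 144, and the 2 members 3 by DESeq2, 1 by limma voom, 0 without VTL-81 and VTL-44 and 1 to 2. With Dox the 0 genes became 94 by DESeq2, 1 by limma voom and 0 to 4. With all 20 enzymes in place of Hmgcs1 and Sqle, export minus synthesis was 2.235 in the dependent tumours, 1.96 and 2.42 in the evolving tumours without and with Dox, and 2.14 and 2.54 in the independent tumours, while leaving out 1 tumour gave 0.43 to 1.41, −0.08 to 0.76, 1.18 to 1.58, 0.53 to 1.31 and 1.17 to 1.89. Without VTL-81 and VTL-44 the sign changed for Insig1 with Dox in the independent tumours (−0.34), for Sqle in independent minus dependent (0.38), for Npc2 and Lipa in independent minus evolving without Dox (−0.069 and −0.42), and for Npc1, Sqle and Insig1 with Dox (−0.082, 0.31 and −0.25). It also changed for Npc1 with Dox in the independent tumours with no replicate block (0.026), for Srebf2 in independent minus dependent (−0.001 with RLE factors and by DESeq2, −0.014 by limma voom) and for Osbpl1a in evolving minus dependent by limma voom (0.31). With 1 tumour left out, the log2 change with Dox in the independent tumours ran from −0.29 to 0.166 for Npc1, −0.078 to 0.288 for Npc2, −0.448 to 0.029 for Srebf2 and −0.052 to 0.367 for Insig1, and the difference of the responses from −0.11 to 1.292 for Sqle. Independent minus dependent ran from −1.099 to 0.302 for Lipa, −0.398 to 0.203 for Sqle and −0.094 to 0.181 for Srebf2, and evolving minus dependent from −0.014 to 0.397 for Npc2 and −0.773 to 1.352 for Osbpl1a. Independent minus evolving ran from −0.288 to 1.008 for Lipa without Dox, and with Dox from −0.083 to 0.414 for Npc1, −1.103 to 0.075 for Lipa, −0.125 to 0.206 for Hmgcs1, −0.504 to 0.137 for Sqle, −0.416 to 0.299 for Srebf2 and −0.178 to 0.532 for Insig1. None of these passed in either setting, and the cause was not tested. The block moved no other call of a member than that of Lipa. At 1 to 20 counts per library, Osbpl1a with Dox is too thin to rank the evolving tumours.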
